A study of Rattus norvegicus with 4 samples.

Results

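The chemokine system was examined as 54 of the 33778 genes in the deposited tables, those whose gene name begins with Ccl, Cxcl, Cx3cl, Xcl, Ccr, Cxcr, Cx3cr or Ackr followed by a number. They were 34 ligands, 17 conventional receptors and 3 atypical receptors. RNA was sequenced from H9C2, an established line grown from embryonic rat heart, in 4 libraries of the same line and medium. The 2 control libraries came from cells without added metabolite, and the 2 PAGln libraries from cells given 100 µM PAGln for 48 h. PAGln is phenylacetylglutamine, a conjugate of glutamine with phenylacetate from gut bacteria. The labels give different numbers of repeats and do not say whether libraries of a group were separate cultures, so the p-values measure a spread that may be technical.

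Chemokines are small secreted proteins that direct the migration of leukocytes, progenitor cells and muscle precursors along gradients. They act on receptors that span the membrane many times and signal through inhibitory G proteins, while the atypical receptors bind chemokines without such signalling and mostly take them up from the surroundings. In muscle and heart the system is best known for Cxcl12 and its receptors, which guide cells in development and after injury, and for ligands such as Ccl2 and Cxcl1 that NF-kB induces in inflamed tissue.

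Values are FPKM, read numbers divided by gene length and by library size, as made by the authors. Reads per gene were recovered from them, 13507110 to 14984712 per library, so that 1 read on a gene of 1 kb was worth 0.0663 to 0.0738 FPKM. The label calls the cells cardiac myocytes, but of 11 cardiac myocyte markers only Nkx2-5 and Tnnt2 reached a mean of 1 FPKM, and Myh6 lay between 0.0607 and 0.245 FPKM. Of 8 skeletal myoblast markers 5 reached that level, as did all 5 smooth muscle markers and 3 of 6 fibroblast markers (Col1a1, Thy1 and Pdgfrb, with Dcn and Lum at 0). Of 9 matched markers of macrophages and other leukocytes, the cells best known for chemokine receptors, Cd14 and Cd3e reached it, while Adgre1, a macrophage marker, had 0 reads. The summed level of these markers was 16.7 to 18.9 FPKM in control and 17.3 to 18.6 in PAGln libraries, of which Cd14 alone made up 14.6 to 16.7 FPKM. The other 7 markers lay under 1 FPKM, and the part of such cells in the chemokine values was not tested. None of 5 matched endothelial markers reached a mean of 1 FPKM. Hprt1, an enzyme of purine salvage that most cells use, had 25.4, 0.504, 24.8 and 0.780 FPKM in control 1, control 2, PAGln 1 and PAGln 2, so a value near 0 in these tables does not by itself show that a gene is silent.

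Only 4 of the 54 members had 1 FPKM or more on average, namely the ligands Cxcl12, Cxcl16 and Cxcl1 and the atypical receptor Ackr3. Another 22 members had at least 1 read in some library, and 28 had 0 reads in all 4. In each library the 4 abundant genes made up 97.5% to 98.6% of the summed FPKM of all members. None of the 17 conventional receptors reached 1 FPKM. In bulk RNA, fewer cells that express a gene and less RNA per cell cannot be told apart.

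Cxcl12 was the most abundant member. It encodes the chemokine also called stromal cell-derived factor, and it lies on chromosome 4 from 149261044 to 149273891 (ENSRNOG00000013589; the build of the deposited coordinates is not given in the sources used here). The control libraries 1 and 2 held 52.8 and 54.7 FPKM, and the PAGln libraries 1 and 2 held 57.2 and 56.8. Both PAGln libraries thus lay above both control libraries, by a margin that is small beside the level. With a mean of 55.4 ± 2.06 FPKM (SD over 4 libraries) it ranked 1553 of the 33778 genes. Among the summed FPKM of the 34 ligands, Cxcl12 held 79.7% to 83.9% in the single libraries.

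Ackr3, the atypical receptor that binds Cxcl12 and removes it from the surroundings, was close to its ligand in level. It lies on chromosome 9 from 97355924 to 97367445 (ENSRNOG00000019622). Its control libraries had 48.8 and 47.7 FPKM and its PAGln libraries 46.4 and 58.7, in replicate order. PAGln 2 stood above the other libraries and PAGln 1 below them, so the groups overlapped. The 95% counting interval (exact Poisson, counting error only) was 43.8 to 49.1 FPKM in PAGln 1 and 55.8 to 61.7 in PAGln 2, so these libraries of the same treatment differed by more than counting error. The range of Ackr3 overlapped that of Cxcl12, and the ratio of Cxcl12 to Ackr3 was 1.08, 1.15, 1.23 and 0.967 in the same order of libraries. Ackr3 made up 97.8% to 99.1% of the summed receptor FPKM.

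Cxcr4, the conventional receptor through which Cxcl12 signals, had 0 reads in every library. By counting error alone, 0 reads over the 4 libraries allow it up to 0.0300 FPKM (3 reads), a limit that does not cover reads lost in the authors' processing. The promoters of the 3 genes are shown because they set the ligand and its scavenger beside the receptor that was not detected. Each runs from 250 bases before to 50 bases after the gene start in RefSeq (build GRCr8), on the strand of the gene, at chr4:152060531-152060830 (plus strand) for Cxcl12, chr9:98247104-98247403 (plus) for Ackr3 and chr13:42634239-42634538 (minus) for Cxcr4. Capitals mark matches on either strand to TATAAA, to GGGCGG (the GC box) or to the NF-kB consensus.
Cxcl12: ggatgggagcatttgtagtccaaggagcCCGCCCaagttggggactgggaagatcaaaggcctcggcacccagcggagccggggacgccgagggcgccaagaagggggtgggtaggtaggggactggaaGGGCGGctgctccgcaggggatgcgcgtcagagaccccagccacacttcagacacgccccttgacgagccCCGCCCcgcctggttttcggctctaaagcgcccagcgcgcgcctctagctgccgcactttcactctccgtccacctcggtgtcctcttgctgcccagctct
Ackr3: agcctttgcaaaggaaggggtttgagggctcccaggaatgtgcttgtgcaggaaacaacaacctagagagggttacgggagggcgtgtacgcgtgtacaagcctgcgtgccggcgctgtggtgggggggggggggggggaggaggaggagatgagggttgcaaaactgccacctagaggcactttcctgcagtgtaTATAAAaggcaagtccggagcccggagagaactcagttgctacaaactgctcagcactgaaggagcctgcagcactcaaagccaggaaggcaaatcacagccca
Cxcr4: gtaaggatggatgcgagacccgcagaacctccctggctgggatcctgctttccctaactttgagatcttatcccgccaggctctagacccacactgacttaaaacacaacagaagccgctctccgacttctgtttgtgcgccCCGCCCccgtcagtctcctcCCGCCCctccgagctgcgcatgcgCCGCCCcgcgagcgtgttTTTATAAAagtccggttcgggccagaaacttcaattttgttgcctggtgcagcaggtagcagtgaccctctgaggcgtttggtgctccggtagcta
The Cxcl12 window held 3 GC boxes and 23 CpG dinucleotides, and the Ackr3 window held a TATAAA 54 bases before the start and 9 CpG. The Cxcr4 window held 3 GC boxes, TATAAA on overlapping stretches of both strands and 20 CpG. The windows of the abundant ligand and of the undetected receptor were thus alike in CpG and GC boxes.

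Cxcl16 was the next member by level, and its range did not overlap those of Cxcl12 and Ackr3. It encodes a chemokine made as a membrane protein on a stalk, which Adam10 can cut to release it, and which binds Cxcr6. It lies on chromosome 10 from 57060007 to 57064600 (ENSRNOG00000026647). The controls had 10.002 and 9.25 FPKM and the PAGln libraries 8.26 and 10.4. As for Ackr3, the PAGln libraries held both the lowest and the highest value. Cxcr6 had 0 reads, with a counting limit of 0.0497 FPKM. Cxcr6 lies wholly within the span of Fyco1 on the other strand, and the limit does not cover reads lost in the authors' processing. Adam10, a membrane protease, had a mean of 30.5 FPKM (range 26.7 to 33.5) and its relative Adam17 15.6 FPKM (range 15.01 to 16.03).

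Cxcl1, a neutrophil attractant induced by NF-kB, was the least abundant member past the filter. It lies on chromosome 14 from 18743685 to 18745457 (ENSRNOG00000002802). Its controls stood at 1.31 and 1.36 FPKM (18 and 19 reads) and its PAGln libraries at 1.04 and 1.58 FPKM (13 and 20 reads). The lowest and the highest value again came from the PAGln libraries. Cxcl17, a ligand of mucosal tissue known for attracting myeloid cells, lay just under the filter with 0.676, 1.25, 0.742 and 1.197 FPKM in the same order, and the ranges of Cxcl1 and Cxcl17 overlapped. Cxcl1 passed the level of 1 FPKM in every library, and Cxcl17 in control 2 and PAGln 2.

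**Figure D1:**
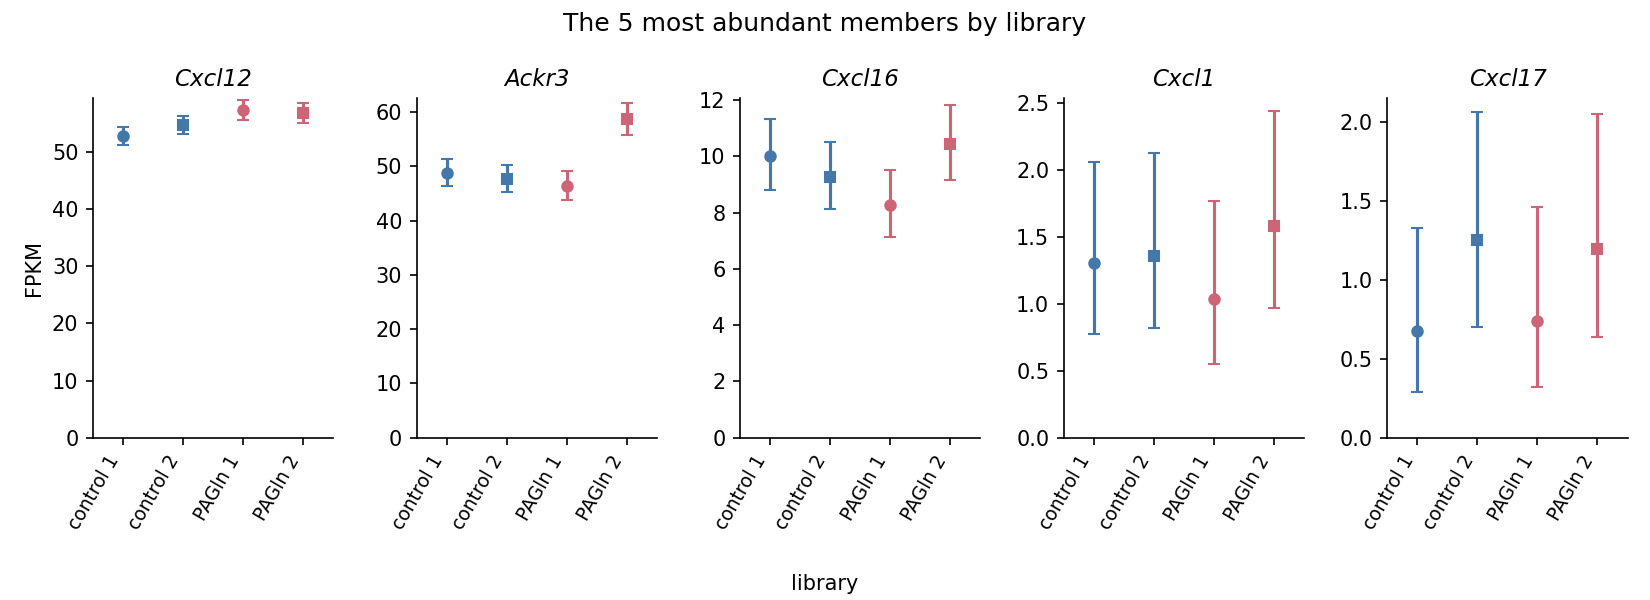
FPKM of the 5 most abundant members in each of the 4 libraries, each panel with its own linear axis from 0. Points are single libraries (circle, replicate 1; square, replicate 2; blue, control; red, PAGln) and bars are 95% counting intervals. For Cxcl12 both PAGln points lie above both control points, and for Ackr3, Cxcl16 and Cxcl1 the PAGln points are the lowest and the highest.

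The neighbours of Cxcl1 were not detected. Cxcl2, a closely related neutrophil attractant, ends 10294 bases from Cxcl1 and had 0 reads, as did Cxcl3 and Cxcl6 in the same cluster on chromosome 14 (18731378 to 18862407). Reads that match several of these paralogs may have been dropped or split by the authors' counting, which is not described. Cxcr2 and Cxcr1, the receptors of these ligands, had 0 reads too. The promoters of the neighbouring pair are shown because 1 gene had reads and the other none. They lie at chr14:17479272-17479571 and chr14:17467206-17467505 (both minus strand, GRCr8), with the same windows and capitals as before.
Cxcl1: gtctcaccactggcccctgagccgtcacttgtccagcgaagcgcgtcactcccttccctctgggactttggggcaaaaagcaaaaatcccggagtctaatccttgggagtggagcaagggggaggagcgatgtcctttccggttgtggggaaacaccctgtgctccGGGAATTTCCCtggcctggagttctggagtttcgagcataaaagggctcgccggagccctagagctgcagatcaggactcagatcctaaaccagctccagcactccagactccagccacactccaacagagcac
Cxcl2: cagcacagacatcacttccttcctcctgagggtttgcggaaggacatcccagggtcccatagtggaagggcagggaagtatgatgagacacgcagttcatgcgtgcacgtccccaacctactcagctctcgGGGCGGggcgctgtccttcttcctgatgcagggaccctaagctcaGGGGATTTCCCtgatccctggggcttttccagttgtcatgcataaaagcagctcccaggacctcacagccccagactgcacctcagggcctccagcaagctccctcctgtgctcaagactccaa
Both windows hold the NF-kB consensus, at 84 bases before the start in Cxcl1, while Cxcl2 also has a GC box. The match is a feature of the letters that both genes share.

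Over all promoters of the table the NF-kB consensus was found in 4.18% of 33469 windows of 300 bases, GGGCGG in 33.1% and TATAAA in 14.2%. RefSeq windows were matched to 41 of the 54 members by symbol, and of these 8 held the NF-kB consensus, 10 GGGCGG and 12 TATAAA. The consensus was in Cxcl1, in Cxcl10 and Cxcl11, which had few reads, and in 5 members with 0 reads (Ccl9, Ccl20, Ccr3, Cxcl2 and Cxcl6). Of the 8 windows with the consensus, 3 thus belonged to members with a read and 5 to members with 0 reads. Of all 41 matched windows, 20 belonged to members with 0 reads. The 4 abundant members had a median of 11.5 CpG (range 9 to 23). The median was 5 (range 2 to 20) in the 17 matched members with few reads and 3 (range 0 to 26) in the 20 matched members with 0 reads. Over all promoters the median was 7, and the ranges of the member groups overlapped. Cxcr4, Cxcl14 (a ligand of epithelium, 26 CpG) and Cx3cl1 (a membrane-bound ligand of neurons and endothelium, 20 CpG) had many CpG and 0 or few reads. These are descriptions of small groups chosen by level, with no test.

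**Figure D2:**
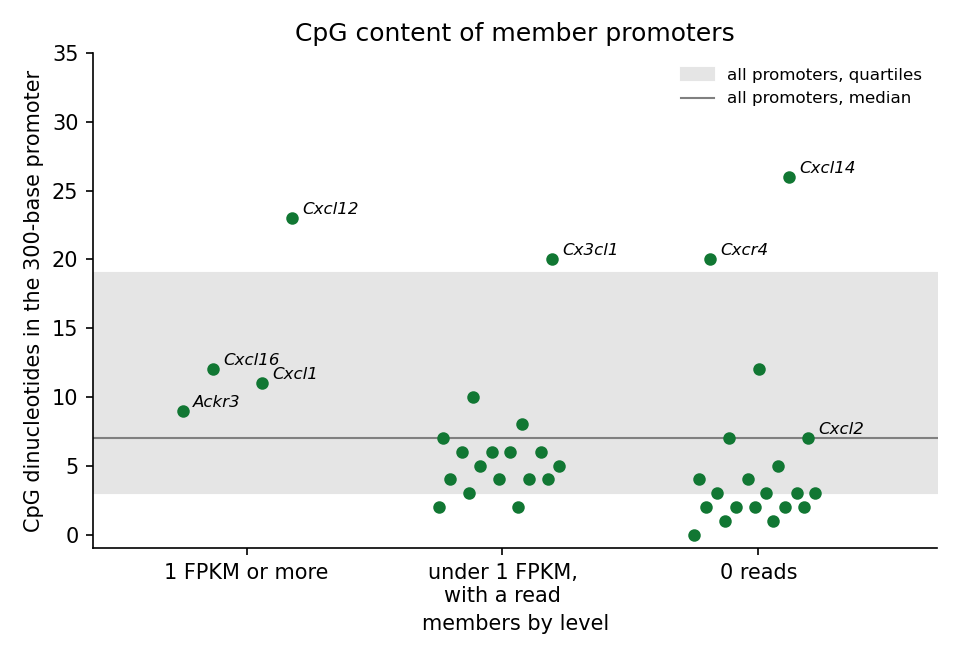
CpG dinucleotides in the 300-base promoter window of the 41 members matched to RefSeq, grouped by level in these cells. Points are genes, the line is the median of all promoters (7) and the band their quartiles (3 to 19). The 4 abundant members lie between 9 and 23, and most members with 0 reads lie under the line.

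PAGln against control asks whether the metabolite altered chemokine transcripts after 48 h. No member passed the test. All 4 members that reached the filter were tested in a limma fit over 12334 genes on log2(FPKM + 1), and 0 passed at an adjusted p under 0.05, against 0% of all genes tested. Of the 4 members 0 had an unadjusted p under 0.05, against 262 genes or 2.12% over all genes, and limma's voom on the recovered reads also called 0 genes.

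Cxcl12 averaged 53.7 ± 1.35 FPKM without and 57.02 ± 0.314 FPKM with PAGln (SD, n = 2 each), a log2 fold change of 0.084 (SE 0.095, 95% interval -0.16 to 0.33, limma adjusted p = 0.9995). It was the 1 member of the 4 with both PAGln libraries above both controls, a pattern that 11.5% of all genes tested showed. No member had both below, which 11.6% of all genes showed. Ackr3 averaged 48.3 ± 0.802 FPKM without and 52.6 ± 8.71 FPKM with PAGln. The log2 fold change of 0.11 (95% interval -0.25 to 0.47) turned to -0.055 without PAGln 2 and was 0.28 without PAGln 1.

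Cxcl16 averaged 9.63 ± 0.530 FPKM without and 9.35 ± 1.54 FPKM with PAGln, a log2 fold change of -0.045 (95% interval -0.44 to 0.35) that turned to 0.11 without PAGln 1 and to 0.0056 without control 1. Cxcl1 averaged 1.33 ± 0.0389 FPKM without and 1.31 ± 0.386 FPKM with PAGln, a log2 fold change of -0.025 (95% interval -0.64 to 0.59) that turned to 0.15 without PAGln 1. The unadjusted limma p-values of the 4 members ran from 0.413 to 0.921. On the scale of log2(FPKM + 1), the intervals leave room for changes of the size given by their ends, widest for Cxcl1 with few reads. For Cxcl1, whose level is near the 1 FPKM added, this scale understates the change in FPKM itself. The median log2 fold change of the 4 members was 0.030, and 2 of 4 were higher, against a median of 0.0021 and 50.6% higher over all genes tested.

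**Figure D3:**
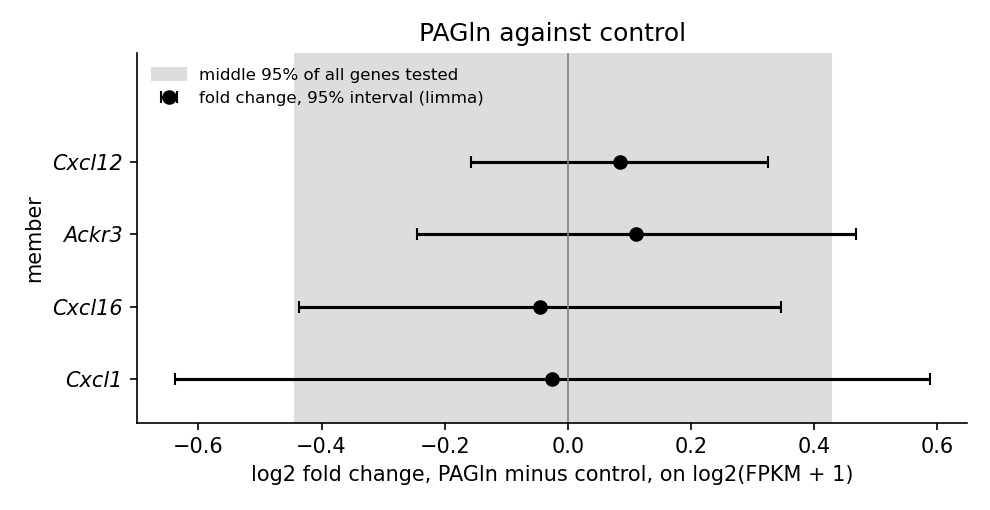
Log2 fold change of the 4 tested members, PAGln over control after adding 1 FPKM, with 95% intervals from limma (n = 2 libraries a group). The band spans the middle 95% of all 12334 genes tested, -0.44 to 0.43. The 4 estimates lie between -0.045 and 0.11, and each interval includes 0.

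The summed level of the 34 ligands was 66.4 ± 1.80 FPKM without and 69.7 ± 2.12 FPKM with PAGln (exact permutation test, two-sided, p = 0.333, the smallest that 2 against 2 libraries can give). It was 65.1, 67.7, 68.2 and 71.2 FPKM in control 1, control 2, PAGln 1 and PAGln 2, and most of it was Cxcl12. The summed level of the receptors of both kinds was 48.8 ± 0.838 FPKM without and 53.4 ± 8.34 FPKM with PAGln (exact permutation p = 1). The receptor sum was nearly all Ackr3, so its spread is that of Ackr3 in the PAGln libraries.

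The 22 members under the filter with a read held 77 reads over both controls and 85 over both PAGln libraries, with a median of 3.5 reads per gene over all 4 libraries. Of these, 17 had 5 reads or fewer in total. Reads in every library were seen for 4 of them, Cxcl17, Ccr10, Cxcl10 and Ackr4. Such counts limit what can be seen, and none of these genes entered the test.

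Among ligands, Cxcl17 had 8, 15, 8 and 13 reads in control 1, control 2, PAGln 1 and PAGln 2, with replicate 2 of both groups above replicate 1. Cxcl10, an interferon-induced ligand of Cxcr3, had 3, 8, 4 and 2 reads. It lies wholly within the span of Art3 on the other strand, whose mean was 32.9 FPKM, and since the strand used in counting is not given, reads of the pair cannot be told apart. The same holds for Cxcl11, with 2 reads, both in PAGln 1. Cxcl9, which the same interferon induces, had 1 read, in control 1.

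The CC ligands stayed at a few reads. Ccl2, which attracts monocytes and is induced in many stromal cells during inflammation, had 1 read in all, in PAGln 2. Its neighbour Ccl7, also a monocyte attractant, had 3 reads in control 2 and 2 in PAGln 1. Ccl19 had 1, 2, 0 and 2 reads and Ccl21 had 0, 2, 2 and 0. Both are ligands of Ccr7, the receptor that leads lymphocytes to lymph nodes, which had 2 reads in control 1. Ccl17 (2 reads), Ccl22 (2), Ccl24 (2), Ccl25 (3), Ccl26 (1) and Ccl28 (3) made up the rest, and Cx3cl1 had 4 reads.

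Among receptors, Ccr10, the receptor of Ccl27 and Ccl28 in skin and mucosa, had 8, 4, 12 and 5 reads, and PAGln 1 was the highest. Ackr4, a scavenger of Ccl19, Ccl21 and Ccl25, had 1, 5, 8 and 3 reads and lies within the span of Acad11 on the other strand, which had a mean of 10.9 FPKM. Cxcr3 had 4, 0, 2 and 1 reads, and Ccr4, a receptor of T cells, had 5 reads, all in control 2. Cxcr5, the receptor of B cell follicles, had 0, 0, 3 and 2 reads. In a limma fit of all 19226 genes with a read in any library it was the 1 of 26 members under 0.05 before adjustment, against 3.01% of all genes, and its adjusted p was 0.998. In that fit 15 of the 26 members had a positive log2 fold change, against 50.1% of all genes. Ackr2, a scavenger of inflammatory CC ligands, had 1 read.

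**Figure D4:**
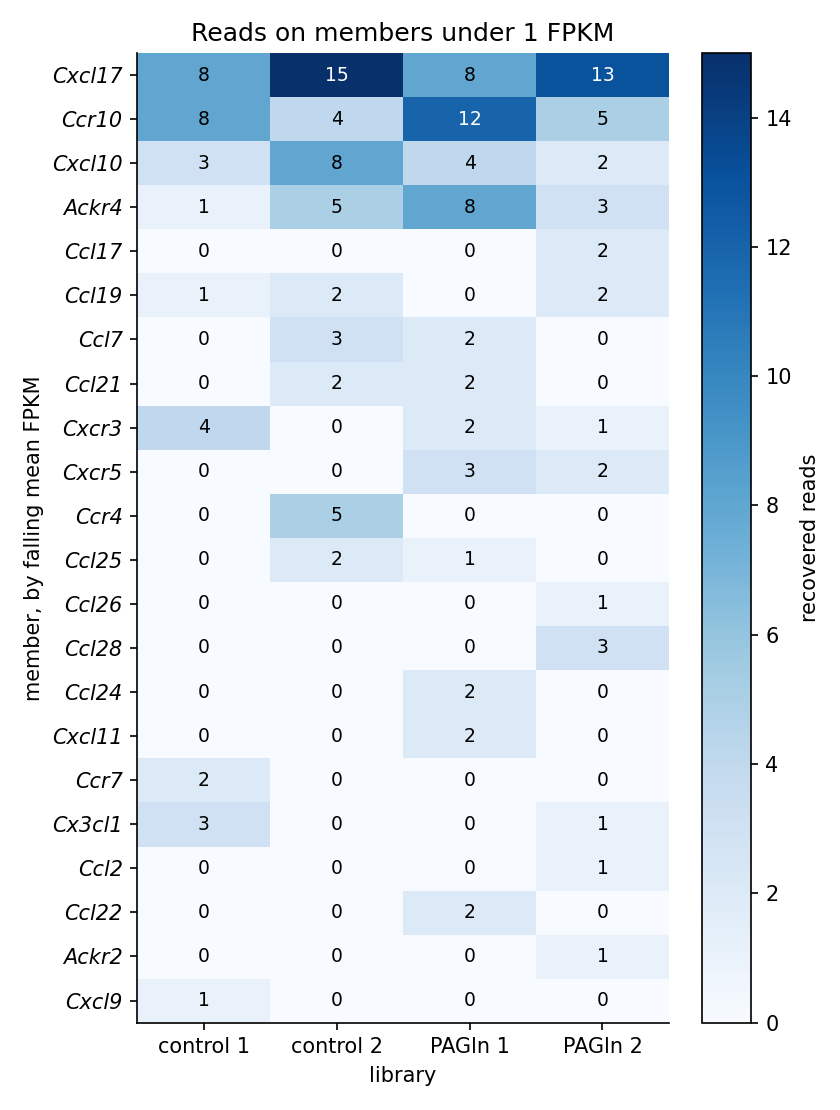
Reads recovered from FPKM for the 22 members with a mean under 1 FPKM and at least 1 read, ordered by mean FPKM, in control 1, control 2, PAGln 1 and PAGln 2. Colour and number give the reads. The highest count is 15, for Cxcl17 in control 2, and most cells hold 0 to 3 reads with no column standing apart.

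The 28 members with 0 reads were 16 ligands and 12 receptors. The ligands were Ccl1, Ccl3, Ccl4, Ccl5, Ccl6, Ccl9, Ccl11, Ccl12, Ccl20, Ccl27, Cxcl2, Cxcl3, Cxcl6, Cxcl13, Cxcl14 and Xcl1. The receptors included Cxcr4. Among the others were Ccr1, Ccr3, Ccr6, Cxcr1, Cxcr2, Cxcr6 and Cx3cr1, which are known mainly from leukocytes and their precursors. With 3 reads over the 4 libraries as the limit of a count of 0, counting error alone allows them 0.0161 to 0.104 FPKM, depending on gene length. Each control library had reads on 13 members, against 16 and 17 in the PAGln libraries 1 and 2. Over all genes the order was the other way, with reads on 16824 and 16900 genes in the controls and on 16507 and 16660 with PAGln, and neither count was tested.

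Many of the members lie in gene clusters. Joining members less than 500000 bases apart gave 10 clusters with 35 members, of which 1 (Cxcl1) reached 1 FPKM and 13 had a read. The 19 members that stood alone held the other 3 abundant genes, Cxcl12, Ackr3 and Cxcl16, and 13 of them had a read. The cluster of 6 receptor genes on chromosome 8 (132828091 to 133215614), among them Ccr1, Ccr3 and Cxcr6, had 0 reads. So did the cluster of Ccl3, Ccl4, Ccl5, Ccl6 and Ccl9 on chromosome 10 (70739800 to 70886355), while that of Ccl2 and Ccl7 (69412017 to 69537882) had 6 reads. Other genes overlapped some members with 0 reads, and Cxcr6 lies wholly within the span of Fyco1 (8.06 FPKM) on the other strand.

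Genes around the chemokine system were described from lists chosen with earlier results of these data known. Of 14 chemotactic genes outside the name rule 5 were tested, 0 passed, and 3 were higher and 2 lower, with a median log2 fold change of 0.0088. The chemokine-like membrane proteins Cmtm7 (42.5 FPKM), Cmtm3 (40.1) and Cmtm6 (29.6) were the most abundant. Mif, a cytokine that also binds Cxcr4 and Ackr3, had 4.82, 7.62, 6.57 and 7.78 FPKM in control 1, control 2, PAGln 1 and PAGln 2, so its groups overlapped. Ccrl2, a receptor-like protein that holds chemerin at the cell surface, had 17, 6, 2 and 18 reads and lay under the filter. Rarres2, the gene of chemerin, had 4 and 3 reads in control and 0 in both PAGln libraries. At a mean of 0.172 FPKM it lay under the filter and did not enter the test. Of the genes that were tested, 11.6% had both PAGln libraries below both controls. The platelet chemokines Pf4 and Ppbp and the receptor Xcr1 had 0 reads.

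The signalling list shows what the cells held downstream of the receptors. Of 31 genes 30 were matched and 18 tested, 0 passed, and 8 were higher and 10 lower (median log2 fold change -0.0060). The inhibitory G protein subunit Gnai2 had a mean of 238 FPKM, Gnb2 277 FPKM and the small GTPase Rac1 144 FPKM. Arrb2, a beta-arrestin that binds active Ackr3, had 3.89 FPKM (range 3.54 to 4.12), while Arrb1 was listed at 0 in all 4 libraries. The receptor kinase Grk6 had the smallest p of the list, at 14.9 ± 0.865 FPKM without and 13.1 ± 1.27 FPKM with PAGln (log2 fold change -0.18, 95% interval -0.50 to 0.14). Several other genes of the list were at 0, among them Pik3cg, Pik3r5 and Rac2, best known from leukocytes, and the widely used Gnai1 and Grk3. Vav1, an exchange factor of blood cells, had 3, 6, 4 and 6 reads.

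Of 31 inducers and decay factors of chemokine mRNA 26 were tested, 0 passed, and 14 were higher and 12 lower (median log2 fold change 0.0032). The NF-kB subunit Rela had 53.0 FPKM (range 50.7 to 55.5), the tumour necrosis factor receptor Tnfrsf1a 75.3 FPKM and the interleukin 1 receptor Il1r1 8.37 FPKM (range 6.26 to 10.96). The ligands of these receptors were near or at 0, with Il1b at 0, Tnf at a mean of 0.0109 FPKM and Il1a at 0.0946 FPKM. Jun, a subunit of AP-1, had the smallest p of the list, at 43.9 ± 2.44 FPKM without and 37.8 ± 0.841 FPKM with PAGln (log2 fold change -0.21, 95% interval -0.47 to 0.049, limma adjusted p = 0.9995). Both PAGln libraries of Jun lay below both controls, as for 11.6% of all genes tested. They lay above both controls for 2 tested genes of the list, Il6 and Rel, as for 11.5% of all genes tested. Zfp36, which speeds the decay of cytokine mRNAs, had 27.0 ± 1.66 and 25.7 ± 1.34 FPKM.

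Of 24 proteases and proteoglycans that cut or hold chemokines 23 were matched and 13 tested, 0 passed, and 8 were higher and 5 lower (median log2 fold change 0.022). Among heparan sulphate proteins, which can hold Cxcl12 at the cell surface, Gpc1 had 465 FPKM, Sdc1 210 FPKM, Sdc2 82.6 FPKM and Sdc4 51.4 FPKM, while Sdc3 had 0.131 FPKM. Sdc4 had the smallest p of the list, at 53.7 ± 1.71 FPKM without and 49.1 ± 2.52 FPKM with PAGln (log2 fold change -0.13, 95% interval -0.38 to 0.13). Mmp14, a membrane protease that can trim Cxcl12, had 181 FPKM, while Dpp4, the peptidase that inactivates it, was listed at 0. Mmp2 and Mmp9 lay under 0.01 FPKM.

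**Figure D5:**
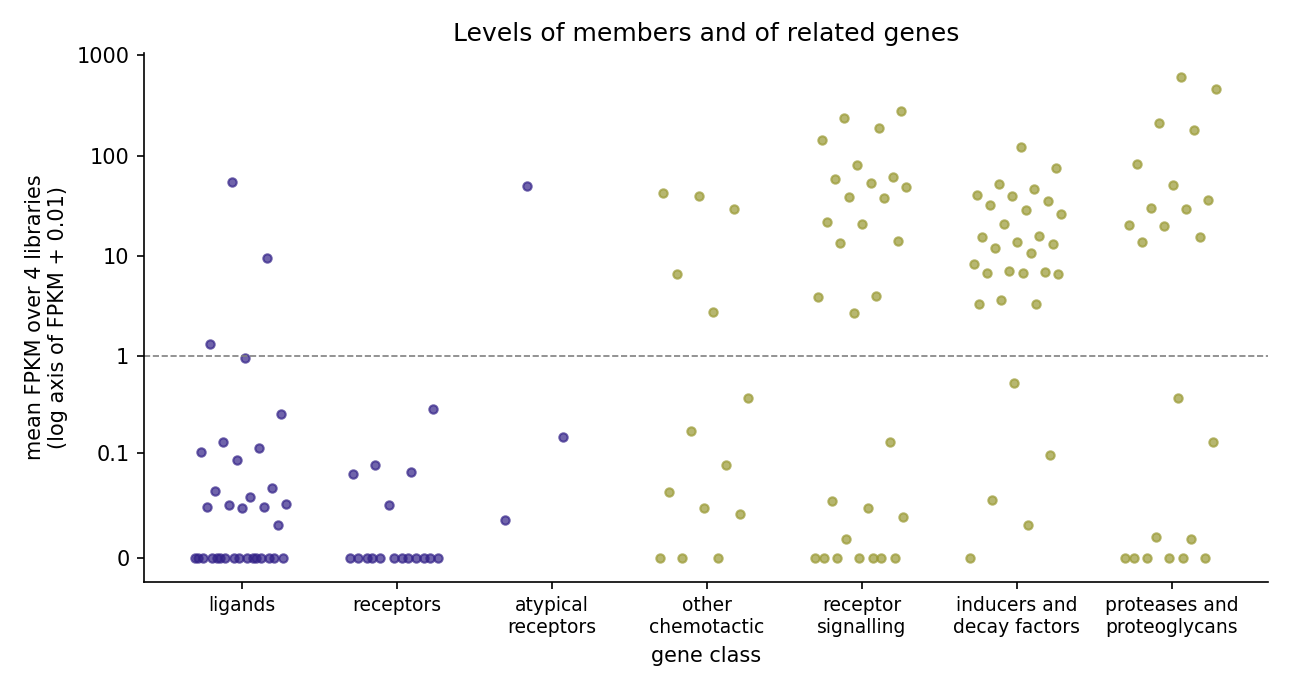
Mean FPKM over the 4 libraries for each member (purple; ligands, receptors, atypical receptors) and for genes of the 4 related lists (olive), on a log axis of FPKM + 0.01. The dashed line is the filter of 1 FPKM. Of the members 4 lie above it, none of them a conventional receptor, while 18 of 30 signalling genes and 26 of 31 inducers and decay factors do.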

How the data were processed

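RNA was measured by sequencing in 2 control and 2 PAGln libraries of H9C2 cells, made with a TruSeq RNA kit per the labels' protocols. Deposited values are FPKM per gene, computed by the authors. Bowtie 0.12.2 and hg38 are named in the submitters' processing notes. That build is human, whereas the gene identifiers are rat Ensembl ones, with 895 loci lacking any. The sources used here do not give the counter, the strand, the rat build or the handling of reads with several matches. FPKM times gene length came in whole steps for 100% of non-zero values (within 0.01 of a read), and taking the smallest step as 1 read gave the reads printed. Reads are not independent molecules, so intervals and floors cover counting error only.

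The 12334 genes averaging at least 1 FPKM entered limma 3.58.1 (R 4.3.3) as log2(FPKM + 1), with a trended eBayes step, a two-sided test, no covariate and Benjamini-Hochberg adjustment over all genes tested (threshold 0.05). This scale understates changes of low genes. Counting intervals (95%, exact Poisson) and exact permutation tests used scipy 1.17.1. Members were named whether or not they passed: those at the filter in full, the others by reads. Members and lists were chosen with earlier results of these data known, and the choice of promoters printed was made after values were seen. Alternatives were other pseudocounts, filters and scalings, voom on recovered reads, a replicate block and leaving out each library. The correlation of control 1 minus control 2 with PAGln 1 minus PAGln 2 was -0.28 over tested genes. That value alone does not settle whether replicate numbers pair the libraries.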

Additional observations from a re-analysis of the deposited data

How the results depend on the processing

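No chemokine system member passed under the alternatives to the limma fit that kept all 4 libraries. The log2 fold change of Cxcl12 was positive in all 13 alternatives (0.059 to 0.11), but many of these could not turn its sign. Other filters, no variance trend and a replicate block leave the estimate at 0.084 by construction. As both PAGln libraries lay above both controls, leaving 1 out or changing the pseudocount could not turn it either. Quantile normalization, median centring and voom, which could have, gave 0.10, 0.081 and 0.089. Leaving out 1 library at a time gave log2 fold changes of -0.055 to 0.28 for Ackr3, -0.20 to 0.11 for Cxcl16 and -0.20 to 0.15 for Cxcl1, where the remaining library is taken to be as variable as the opposite group, and a median over members of -0.13 (without PAGln 2) to 0.15 (without PAGln 1). Members with a positive value numbered 2 of 4 in the fit as reported, against 50.6% of all genes. With a filter at 0.1 FPKM they were 6 of 11, and with no filter 15 of 26, against 50.1% of all genes in the latter. Leaving out 1 library gave 3 of 5 (control 1), 2 of 4 (control 2), 5 of 5 (PAGln 1) and 1 of 4 (PAGln 2). The share of all genes is not given for these fits. Their median log2 fold change over all genes tested was -0.0014, -0.0026, 0.0024 and 0.0038, in the same order. Over all genes, 0 passed as reported, 1 to 11 when a library was left out (2 without control 1, 1 without control 2, 5 without PAGln 1, 11 without PAGln 2) and 7 with a replicate block. Whether replicate numbers pair the libraries is not known, and the block changed no member's call. After seeing the data a crossed replicate block was added, which gave 0 genes at an adjusted p under 0.05 and 899 at an unadjusted one. Members at 1 FPKM numbered 4, and 5 without control 1, without PAGln 1 or at a filter of 0.5 FPKM, the added one being Cxcl17. Cxcl12 held 81.4% of the ligand FPKM on average and 94.0% of the ligand reads, which are not divided by gene length. Depth limits the members under the filter, of which 17 had from 1 to 5 reads in all and 28 had 0.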
